A study of Homo sapiens with 10 samples.

Results

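The aminoacyl-tRNA synthetases are the enzymes that attach each amino acid to its transfer RNA. The genes described here are 36 of the 58174 gene identifiers counted in the study, chosen by name from a fixed list of synthetase symbols. They comprise 20 genes for cytosolic enzymes and 16 genes for mitochondrial enzymes. The selection rule goes by gene name alone, although it was written with earlier results of these data known. All 36 genes had enough reads to enter the statistical test.

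The cells were SNU-387, an established human hepatocellular carcinoma line. One stable line expressed wild-type YES, a Src-family tyrosine kinase (5 libraries), and the other expressed YES T348I (5 libraries), which carries a substitution at the gatekeeper residue of the kinase. All 10 libraries, wild type included, came from cells treated with 100 nM dasatinib, an inhibitor of Src-family and other tyrosine kinases, and no untreated library was analysed here. The labels do not say whether each stable line is a single clone or a pool, what drives the transgene, how long treatment lasted, or whether replicates are separate cultures. The p-values therefore rest on a spread between libraries that may be technical. With each genotype in its own stable line, a genotype difference cannot be told apart from other differences between the lines. Without untreated libraries, it also cannot be told apart from a difference in the response to dasatinib. The library titles come in 2 styles, a long form (3 libraries per genotype) and a short form (2 per genotype), here called title sets, and what the styles stand for is not stated.

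Synthetases charge transfer RNA in the cytosol and in the mitochondrion, for most amino acids through separate nuclear genes. GARS and KARS, counted here with the cytosolic genes, each serve both compartments. Several cytosolic enzymes are held in the multisynthetase complex on the scaffold proteins AIMP1, AIMP2 and EEF1E1, whereas the mitochondrial enzymes serve only the few proteins encoded by mitochondrial DNA. Many cytosolic synthetase genes are known targets of ATF4, the transcription factor of the amino acid response, which binds C/EBP-ATF response elements, and MYC is known to act on genes of translation through E-box elements.

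The libraries held between 10168307 and 16939029 reads in genes. The 3 long-title T348I libraries were nearly as alike as repeated sequencing of a single sample: chi-square over degrees of freedom was 1.58 to 2.04 between them, and 12.8 to 48.6 among the long-title wild-type libraries. Long-title wild-type library 2 had 8.64% unmapped reads against at most 5.29% elsewhere. Only 2 of 9 hepatocyte markers were abundant enough to test, SERPINA1 and AFP. SERPINA1 lay at 4.97 to 20.5 CPM (counts-per-million, after scaling between libraries) and AFP at 1.49 to 4.20 CPM. SERPINA1 was lower in the short-title libraries (log2 difference -1.58, adjusted p = 9.6e-07, edgeR). The defining markers ALB, TTR and HNF4A were at most 0.135 CPM in every library. Of 5 epithelial markers, the keratin genes KRT8 and KRT18 lay between 410 and 709 CPM and between 181 and 367 CPM, whereas CDH1, KRT19 and EPCAM were at most 0.172, 0.115 and 1.46 CPM. Of the 5 blood and immune markers 1 was testable: CD14 was at 45.1 CPM in long-title wild-type library 1 and at most 8.84 CPM in the other 9, and the pan-leukocyte gene PTPRC stayed at or below 0.885 CPM. Of 4 endothelial markers 1 was testable, PECAM1 at 1.996 to 9.95 CPM. Of 6 mesenchymal markers 4 were higher in the short-title libraries, among them VIM, at 25.5 to 38.0 CPM in the long-title and 110 to 171 CPM in the short-title libraries. Long-title wild-type library 1 stood apart in the others of these 4. COL1A1, at 1754 CPM there, was at 129 to 224 CPM in the other 5 long-title and 1220 to 1676 CPM in the short-title libraries. COL1A2, at 4617 CPM in that library, exceeded its level in all short-title libraries. THY1, at 34.2 CPM there, lay within the short-title range of 26.5 to 59.8 CPM. In the genotype test, FN1 (-1.12, adjusted p = 0.00556), PECAM1 (-1.15, 0.00985) and CD14 (-1.58, 0.0279) fell in T348I on the log2 scale and KRT18 rose (0.40, 0.00809, all edgeR). FN1 and CD14 were highest in long-title wild-type library 1, at 26236 and 45.1 CPM. Whether these differences take part in those of the synthetases was not tested. In bulk RNA, a change in the number of cells of a kind and a change in RNA per cell cannot be told apart.

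Promoter windows of RefSeq (build GRCh38.p14, from 250 bases before to 50 bases after an annotated start) were given for 30 of the 36 genes, 16 cytosolic and 14 mitochondrial. DARS, LARS, VARS, YARS, AARS2 and VARS2 had none. The windows were searched on both strands for TGATGNAA, the core of the C/EBP-ATF response element, whose other strand reads TTNCATCA. The motif lay in 7 of 16 cytosolic genes, against 1217 of 27305 genes (4.46%) with any window, and in 1 of 14 mitochondrial genes. All 7 cytosolic matches belong to the 10 genes with a window on a list of 13 cytosolic synthetases known as ATF4-responsive, and 0 of the 6 remaining cytosolic genes with a window held a match. The sites of the 7 cytosolic genes are printed because they are what these genes share in sequence. Each line runs 5′ to 3′ along the gene's own strand, and capitals mark the matched bases.
AARS (chr16:70289675-70289704, minus strand, match begins 187 bases before the start): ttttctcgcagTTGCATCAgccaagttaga
CARS (chr11:3057407-3057436, minus strand, 2 bases before): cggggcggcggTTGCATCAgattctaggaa
GARS (chr7:30594834-30594863, plus strand, 33 bases before the later of its annotated starts): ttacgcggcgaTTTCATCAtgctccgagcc
IARS (chr9:92293692-92293721, minus strand, 13 bases before): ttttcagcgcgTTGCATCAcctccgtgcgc
MARS (chr12:57488053-57488082, plus strand, 4 bases before): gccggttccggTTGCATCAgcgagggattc
NARS (chr18:57621804-57621833, minus strand, at base 15 after the start): tctacgctctcTGATGCAAcgccggaatcg
TARS (chr5:33440956-33440985, plus strand, at base 3 after the start): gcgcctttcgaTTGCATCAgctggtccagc

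In these 30-base stretches the matched element reads TTGCATCA or its reverse complement in 6 of 7 genes, GARS being the exception. In 6 of 7 it lies within 33 bases of an annotated start. CARS, GARS and TARS each have another window, at another start, that held no match. The MARS window (chr12:57487818-57488117) lies inside the gene span given below, away from its outer start. The distances therefore depend on the start chosen. Among mitochondrial genes only YARS2 held a match, 197 bases before its start.
YARS2 (chr12:32756076-32756105, minus strand): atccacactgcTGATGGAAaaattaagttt
The E-box CACGTG, a palindrome counted once per site, lay in 1 of 16 cytosolic genes, IARS, and in 3 of 14 mitochondrial genes, CARS2, EARS2 and MARS2, against 8.77% of all genes with a window. The MARS2 site is shown because MARS2 is the mitochondrial member with the highest genotype difference below, and its match begins 11 bases before the start.
MARS2 (chr2:197705347-197705374, plus strand): tgcgcctctcaCACGTGctgtcagaacg
A match describes the letters in the window and does not show binding, and the absence of a match says only that these letters are not in it.

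The level of each synthetase transcript was compared between genes per exon length, as RPKM (CPM divided by the gene's exon length in kilobases). That length joins the exons of all annotated transcripts of a gene, so it can exceed the length of the transcript expressed. The order of the levels depends on it. Cytosolic transcripts ranged from 6.91 RPKM (CARS, the cysteine enzyme) to 57.7 RPKM (EPRS, which carries the glutamate and proline enzymes in a single protein), with a median of 28.7. Mitochondrial transcripts ranged from 0.412 RPKM (SARS2) to 37.4 RPKM (IARS2), with a median of 6.19. EPRS, GARS, IARS, SARS and TARS were the top 5, and the order among them is not resolved, since the ranges over libraries overlap. In the whole order, 34 of the 35 neighbouring genes overlapped in range, the exception being FARS2 and SARS2 at the bottom. IARS2 and RARS2 were the mitochondrial genes nearest to the cytosolic levels, at 37.4 and 28.2 RPKM. HARS2, at 9.23 RPKM, was close to its cytosolic partner HARS at 9.06 RPKM, and those genes start head to head on chromosome 5. The joined exon length was 3736 bases in HARS2 and 7853 bases in HARS. By CPM HARS was the higher, at 62.6 to 81.3 CPM against 32.0 to 42.9 CPM in HARS2. SARS2 shares 46.2% of its exon bases with another annotated gene on the same strand and VARS2 shares 22.0% with GTF2H4, so the values of both are uncertain.

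**Figure D1:**
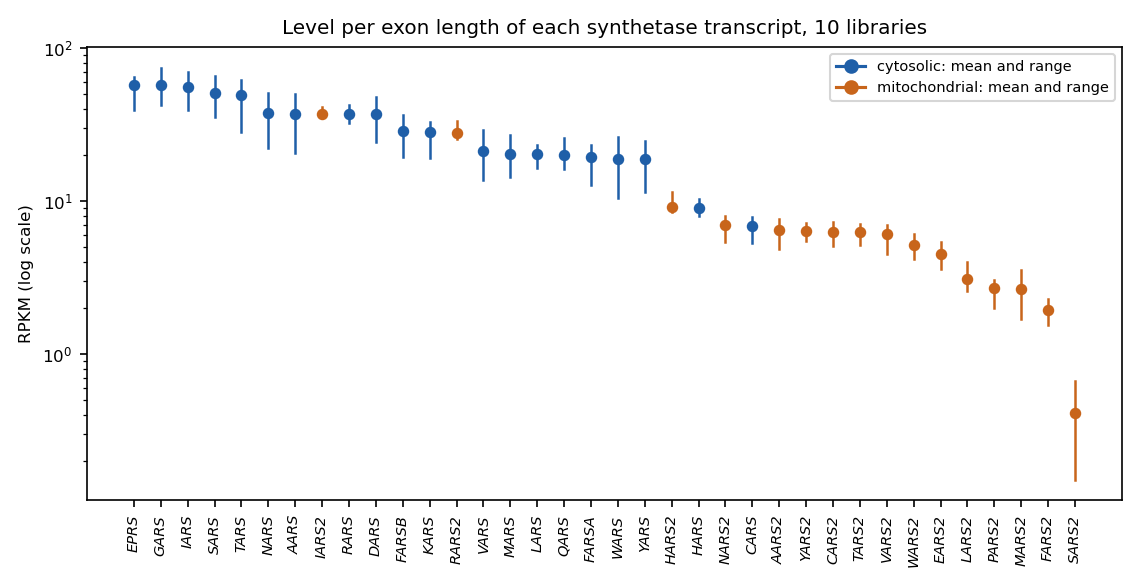
Mean RPKM over 10 libraries (points) and the lowest to highest library (lines) for each synthetase gene, on a log scale, blue for cytosolic and orange for mitochondrial enzymes. Cytosolic genes fill the upper part of the order, with IARS2 at 37.4 and RARS2 at 28.2 RPKM among them, and SARS2 stands lowest at 0.412 RPKM.

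Most, but not all, cytosolic synthetase transcripts were higher in T348I than in wild-type libraries, while QARS, RARS, DARS and CARS were among those that did not pass the test. In edgeR's quasi-likelihood test with the title set as a term, 12 of 20 cytosolic genes rose at a Benjamini-Hochberg adjusted p under 0.05, where 13.7% of the 13743 genes tested were called higher. Of the 16 mitochondrial genes 2 rose, MARS2 and NARS2, a share of 12.5%. The median log2 fold change was 0.33 over the cytosolic and 0.15 over the mitochondrial genes, against -0.03 over all genes tested, and 18 of 20 and 11 of 16 values were above 0. Among members 0 fell, where 13.3% of all genes were called lower. At an unadjusted p under 0.05 the count of lower members was also 0, with edgeR, DESeq2 and limma-voom alike. With the 3 near-identical T348I libraries summed into 1 the counts were 8 cytosolic and 0 mitochondrial, against 899 of 14371 genes called higher. Without wild-type long-title libraries 1 and 2 they were 14 and 1, against 2304 of 14430 genes. Without a title set term 7 cytosolic and 0 mitochondrial genes passed, against 818 of 13743 genes called higher.

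**Figure D2:**
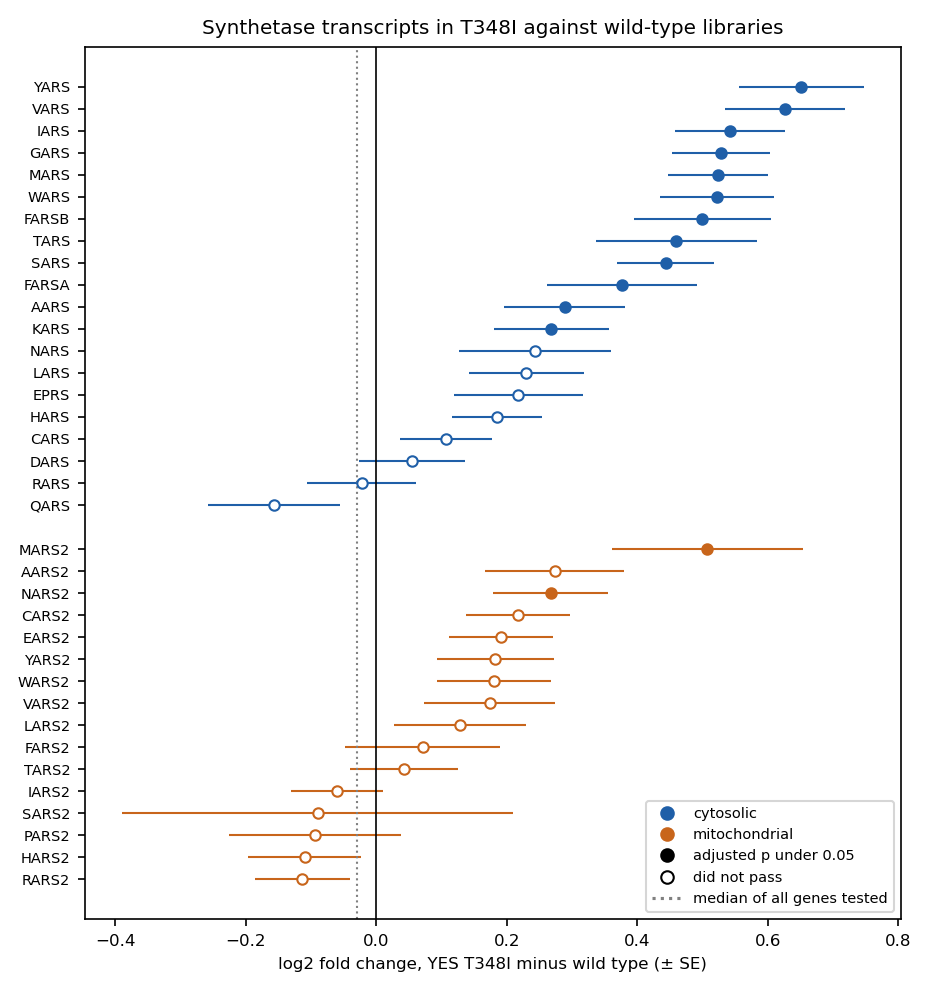
Log2 fold change between T348I and wild-type libraries (± SE) for each of the 36 synthetase genes, cytosolic above and mitochondrial below. Filled points passed at an adjusted p under 0.05 (12 of 20 and 2 of 16), and the dotted line is the median of all genes tested, -0.03.

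The 5 lowest p-values belonged to GARS, VARS, MARS, YARS and IARS, and these 5 kept their call in all 23 alternative settings. GARS (chr7:30594681-30634033) encodes the glycyl-tRNA synthetase of both compartments. It stood at 199, 202 and 198 CPM in the long-title and 178 and 205 CPM in the short-title wild-type libraries. In the T348I libraries GARS stood at 278, 263 and 293 CPM and at 311 and 271 CPM. Every T348I library lay above every wild-type library, and the title sets did not part within a genotype. The log2 fold change of GARS was 0.53 ± 0.08 (SE, adjusted p = 0.000328, edgeR), or 1.44-fold.

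VARS (chr6:31777518-31795953) encodes the valine enzyme. It was counted at 105, 83.3 and 110 CPM in long-title and 101 and 109 CPM in short-title wild-type libraries. In T348I libraries it was counted at 163, 148 and 157 CPM and at 178 and 140 CPM. The groups did not overlap, and the low wild-type value was library 2 of the long titles. The log2 fold change of VARS was 0.63 ± 0.09 (adjusted p = 0.000387, edgeR). YARS (chr1:32775237-32818153), the tyrosine enzyme, had the highest log2 fold change of the 36 genes at 0.65 ± 0.10 (adjusted p = 0.000400, edgeR). Its wild-type values were 126, 145 and 145 CPM (long) and 94.3 and 98.6 CPM (short), and its T348I values were 203, 192 and 199 CPM (long) and 200 and 151 CPM (short). The groups were apart, with short-title T348I library 2 standing well below its 4 companions.

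IARS (chr9:92210207-92293756) and MARS (chr12:57475445-57517569) encode the isoleucine and methionine enzymes of the multisynthetase complex. IARS stood at 307, 393 and 363 CPM and at 292 and 327 CPM in wild-type libraries, and at 521, 487 and 513 CPM and 491 and 434 CPM in T348I libraries, without overlap. Its log2 fold change was 0.54 ± 0.08 (adjusted p = 0.000572, edgeR). MARS stood at 113, 131 and 141 CPM and at 103 and 102 CPM in wild-type libraries, against 192, 181 and 184 CPM and 158 and 135 CPM in T348I libraries. The genotypes were apart within each title set and overlapped only across sets, where short-title T348I library 2 lay below long-title wild-type library 3. The log2 fold change of MARS was 0.52 ± 0.08 (adjusted p = 0.000389, edgeR).

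WARS and SARS, the tryptophan and serine enzymes, followed. WARS (chr14:100333788-100376805) stood at 105, 112 and 127 CPM (long) and 67.2 and 86.2 CPM (short) in wild type. In T348I it stood at 168, 162 and 162 CPM (long) and 121 and 100 CPM (short). The genotypes were apart within each set while the sets differed about as much as the genotypes did. Its log2 fold change was 0.52 ± 0.09 (adjusted p = 0.000903, edgeR), and the call ended without a title set term (adjusted p = 0.108). SARS (chr1:109213918-109238169) stood at 165, 188 and 184 CPM and 136 and 161 CPM in wild type, and at 250, 238 and 254 CPM and 205 and 189 CPM in T348I. These groups did not overlap, and the log2 fold change was 0.44 ± 0.07 (adjusted p = 0.000945, edgeR).

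FARSA and FARSB encode the alpha and beta chains of the cytosolic phenylalanine enzyme. FARSB (chr2:222570536-222656337) stood at 66.2, 97.3 and 93.4 CPM and at 66.1 and 81.0 CPM in wild type, and at 123, 110 and 120 CPM and 116 and 101 CPM in T348I. FARSA (chr19:12922479-12934037) stood at 42.5, 36.3 and 48.6 CPM and at 31.3 and 48.4 CPM in wild type, and at 56.2, 49.2 and 53.2 CPM and 56.9 and 53.5 CPM in T348I. In both genes all T348I libraries lay above all wild-type libraries, by a narrow margin in FARSA. The log2 fold changes were 0.50 ± 0.10 for FARSB (adjusted p = 0.00391, edgeR) and 0.38 ± 0.11 for FARSA (adjusted p = 0.0278), and FARSA lost its call in 9 of 23 settings.

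The remaining cytosolic calls were TARS, AARS and KARS. TARS (chr5:33440696-33469539), the threonine enzyme, stood at 215, 344 and 278 CPM and at 162 and 199 CPM in wild type. In T348I it stood at 342, 350 and 357 CPM and at 312 and 260 CPM. Long-title wild-type libraries 2 and 3 lay within the T348I range, so the groups overlapped. Its log2 fold change was 0.46 ± 0.12 (adjusted p = 0.0149, edgeR), and 4 settings ended the call. AARS (chr16:70252295-70289543), the alanine enzyme, stood at 152, 201 and 198 CPM and at 93.6 and 117 CPM in wild type, and at 211, 214 and 226 CPM and 135 and 136 CPM in T348I. The genotypes were apart within each set, and the short-title libraries of both were low. KARS (chr16:75627474-75648643), which encodes the lysine enzyme of both compartments, stood at 109, 127 and 117 CPM and at 78.0 and 98.3 CPM in wild type, and at 134, 128 and 128 CPM and 128 and 114 CPM in T348I. The genotypes lay close in the long-title and farther apart in the short-title libraries. The log2 fold changes were 0.29 ± 0.09 for AARS (adjusted p = 0.0349, edgeR) and 0.27 ± 0.09 for KARS (adjusted p = 0.0390), and 11 and 13 of 23 settings ended the calls.

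**Figure D3:**
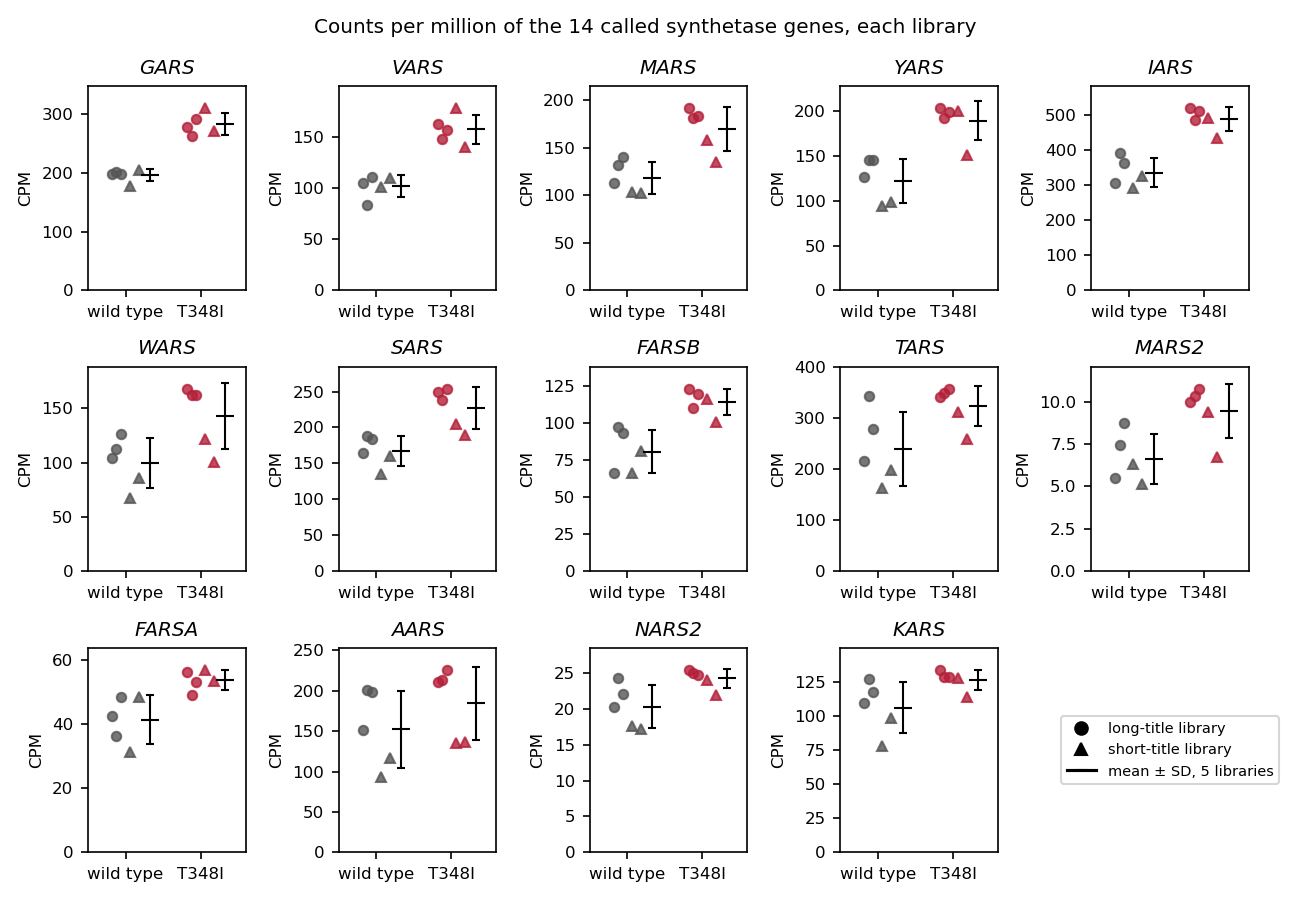
CPM in each library for the 14 synthetase genes that passed the genotype test, on axes that start at 0. Circles are long-title and triangles short-title libraries, and the black marks give the mean ± SD of 5 libraries. GARS and VARS separate by genotype with the sets mixed, whereas in AARS and WARS the triangles lie below the circles of the same genotype.

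In 7 of the 20 cytosolic genes, FARSA, FARSB, GARS, IARS, SARS, VARS and YARS, every T348I library exceeded every wild-type library, where 6.94% of all genes tested did so. Of the mitochondrial genes 0 did, and 0 members lay wholly below wild type, where 4.15% of all genes did. Within the long-title and, separately, within the short-title libraries, T348I lay above wild type without overlap in 11 cytosolic and 4 mitochondrial genes, against 13.8% of all genes. The 4 mitochondrial genes were EARS2, MARS2, NARS2 and WARS2. Fitted alone, the long-title libraries called 7 cytosolic genes higher (GARS, IARS, MARS, SARS, VARS, WARS and YARS) where 5.21% of all genes were called. The short-title libraries alone called 8 (FARSB, GARS, IARS, MARS, TARS, VARS, WARS and YARS) where 6.43% were. Each set alone called 0 mitochondrial genes in edgeR.

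The 8 cytosolic genes that did not pass had log2 fold changes between -0.16 and 0.24. QARS, the glutamine enzyme, had the lowest value at -0.16 ± 0.10 (adjusted p = 0.271, edgeR). It stood at 121, 76.6 and 88.7 CPM and at 106 and 105 CPM in wild type, and at 86.3, 83.5 and 84.0 CPM and 96.3 and 97.3 CPM in T348I. RARS, the arginine enzyme, was at -0.02 ± 0.08 and DARS, the aspartate enzyme, at 0.05 ± 0.08. Both belong with QARS to the multisynthetase complex. CARS was at 0.11 ± 0.07, HARS at 0.18 ± 0.07 (adjusted p = 0.0603), EPRS at 0.22 ± 0.10, LARS at 0.23 ± 0.09 and NARS at 0.24 ± 0.12. Without long-title wild-type library 2, HARS, EPRS, LARS and NARS passed too, with adjusted p of 0.0486, 0.0452, 0.00358 and 0.0140 in edgeR.

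MARS2 (chr2:197705369-197708387), the mitochondrial methionine enzyme, stood at 5.49, 7.47 and 8.75 CPM and at 6.30 and 5.15 CPM in wild type. In T348I it stood at 9.99, 10.3 and 10.7 CPM and at 9.39 and 6.71 CPM. Only short-title T348I library 2 lay within the wild-type range. The log2 fold change of MARS2 was 0.51 ± 0.15 (adjusted p = 0.0216, edgeR), and 9 of 23 settings ended the call. NARS2 (chr11:78435961-78574874), the mitochondrial asparagine enzyme, stood at 20.2, 24.3 and 22.1 CPM and at 17.6 and 17.2 CPM in wild type. In T348I it stood at 25.4, 24.97 and 24.7 CPM and at 24.0 and 22.0 CPM. The groups overlapped through long-title wild-type libraries 2 and 3. Its log2 fold change was 0.27 ± 0.09 (adjusted p = 0.0380, edgeR), and 16 settings ended the call. Among the other 14 mitochondrial genes the log2 fold change ran from -0.11 in RARS2 and HARS2 to 0.27 in AARS2 (adjusted p = 0.0741). IARS2, the most abundant of them, was at -0.06 ± 0.07, with 145 to 173 CPM in wild type and 147 to 158 CPM in T348I.

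Setting cytosolic and mitochondrial enzymes of the same amino acid side by side gave 17 comparisons, in which EPRS was set against EARS2 and PARS2 and both phenylalanine chains against FARS2. The cytosolic gene had the higher level per length in 16 of 17. HARS was the exception, with a longer joined exon length than HARS2 and a higher CPM. The log2 fold change was higher in the cytosolic gene in 15 of 17, with a median difference of 0.30. The widest gaps were for isoleucine (IARS 0.54, IARS2 -0.06), serine (SARS 0.44, SARS2 -0.09) and tyrosine (YARS 0.65, YARS2 0.18). The serine gap is uncertain, since SARS2 had 5 to 37 reads per library and its value ran from -0.34 to 0.09 over 22 settings. Methionine was the single case with both genes called, at 0.52 for MARS and 0.51 for MARS2. For alanine the values were also close, 0.29 and 0.27, and for cysteine and asparagine the mitochondrial gene had the higher value. These are descriptions of fitted values and the differences between partners were not tested.

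**Figure D4:**
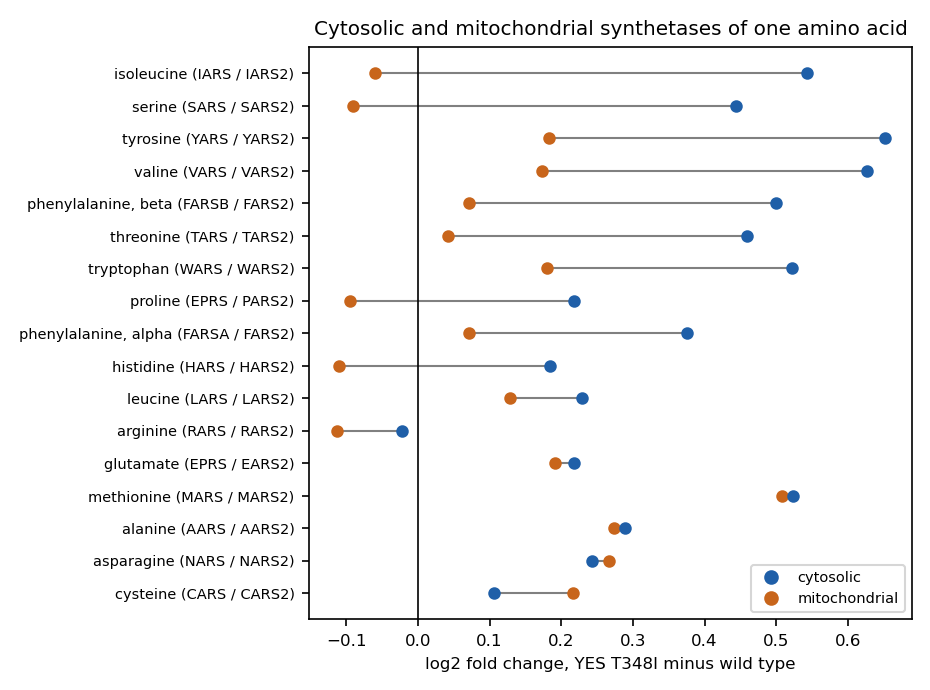
Log2 fold change between T348I and wild-type libraries of the cytosolic (blue) and mitochondrial (orange) synthetase of each amino acid, joined by a line and ordered by their difference. The cytosolic value is higher in 15 of 17 comparisons, and the methionine points nearly coincide at 0.52 and 0.51.

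Summed per library, the cytosolic transcripts came to 552, 658 and 616 RPKM in long-title and 444 and 532 RPKM in short-title wild-type libraries. In T348I libraries the sums were 751, 727 and 755 RPKM and 687 and 622 RPKM. Within each title set the T348I sums were the higher, and across sets short-title T348I library 2 lay below long-title wild-type library 2. The mitochondrial sums lay between 130 and 137 RPKM in wild type and between 133 and 138 RPKM in T348I, and overlapped. IARS2 and RARS2, at means of 37.4 and 28.2 RPKM over all libraries, weighed most in the mitochondrial sums. Their log2 fold changes were -0.06 and -0.11, while the median over the mitochondrial genes was 0.15. The cytosolic sum was 3.42 to 4.80 times the mitochondrial sum in wild type and 4.70 to 5.52 times in T348I.

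By structural class, 5 of 9 class I and 7 of 10 class II cytosolic genes rose, with medians of 0.52 and 0.33 in log2 fold change. Over all genes tested 13.7% were called higher, with a median of -0.03. EPRS, which holds an enzyme of each class, was left out of that split. Of the 8 synthetases of the multisynthetase complex 3 rose (IARS, KARS and MARS), with a median of 0.22. Of its 3 scaffold genes AIMP2 rose by 0.37 ± 0.09 (adjusted p = 0.00702, edgeR), while AIMP1 was at 0.23 and EEF1E1 at 0.36 without passing.

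On the list of 13 ATF4-responsive cytosolic synthetases 9 rose, with a median log2 fold change of 0.46. Among the other 7 cytosolic genes 3 rose (FARSA, FARSB and KARS), with a median of 0.18. The share called higher over all genes tested was 13.7%. Of the 7 genes with a TGATGNAA match printed above 5 rose, with a median of 0.46, and of the 9 cytosolic genes with a window and no match 5 rose, with a median of 0.27. ATF4 itself stood at 254, 235 and 282 CPM and at 168 and 146 CPM in wild type, and at 396, 384 and 389 CPM and 258 and 203 CPM in T348I. The genotypes were apart within each set and the short-title libraries of both were the lower. Its log2 fold change was 0.58 ± 0.09 (adjusted p = 0.000417, edgeR), a call that ended without a title set term (adjusted p = 0.134). MYC stood at 20.3, 28.9 and 28.3 CPM and at 27.2 and 25.3 CPM in wild type, against 49.1, 46.8 and 48.4 CPM and 62.1 and 44.8 CPM in T348I. Its groups did not overlap, and it rose by 0.95 ± 0.11 on the log2 scale (adjusted p = 0.000111, edgeR).

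Of 21 tested amino acid response genes that are not synthetases, 11 rose and 0 fell, with a median of 0.48 and 14 values above 0. For this and the lists below, 13.7% of all genes tested were called higher and 13.3% lower. MTHFD2, at most 0.197 CPM in any library, was not tested. ATF3, CEBPB, NUPR1 and VLDLR were at -0.22, -0.20, -0.21 and -0.25 without passing, and DDIT3 and DDIT4 at -0.01 and -0.06. At an unadjusted p under 0.05 the count lower was 1 with edgeR, DESeq2 and limma-voom. The lowest p-values were those of PSAT1 and PHGDH, of serine synthesis, at 1.15 ± 0.12 and 0.73 ± 0.08, and of SHMT2, a mitochondrial serine hydroxymethyltransferase, at 0.64 ± 0.08 (adjusted p of 5.4e-05, 7.7e-05 and 0.000213, edgeR). Of 8 amino acid transporter genes 5 rose and 1 fell. SLC7A1, a carrier of cationic amino acids, rose by 0.91 ± 0.09, SLC7A5, a carrier of large neutral amino acids, by 1.04 ± 0.15 and SLC6A9, a glycine carrier, by 0.58 ± 0.09, while SLC38A2 fell by 0.33 (adjusted p = 0.00994, edgeR). Of 17 genes of tRNA maturation and export 4 rose, led by POP7 at 0.61 ± 0.08 and POP1 at 0.48 ± 0.09, both subunits of RNase P, and XPOT, the tRNA exporter, at 0.52 ± 0.08. XPOT is also counted among the 11 amino acid response genes. Of 5 tested elongation factor genes EIF5A (0.40 ± 0.10) and EEF1B2 (0.25 ± 0.08) rose. EEF1G, also on that list, had 0 CPM in every library and was not tested. Why EEF1G and MTHFD2 had so few counts was not examined. Of 12 mitochondrial translation factor genes 0 passed in edgeR in either direction, with a median of 0.11. At an unadjusted p under 0.05, 1 was higher and 1 lower, and DESeq2 called 1 higher and limma-voom 0.

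Between title sets, 10 of 20 cytosolic synthetases were lower in the short-title libraries, where 22.1% of all genes tested were called lower, and 0 were higher, where 21.0% were called higher. At an unadjusted p under 0.05 the count of higher cytosolic genes was also 0 with edgeR, DESeq2 and limma-voom. The median log2 difference, short minus long, was -0.21 over the cytosolic genes, -0.06 over the mitochondrial genes and -0.01 over all genes. Of the mitochondrial genes EARS2 (-0.27), TARS2 (-0.24) and NARS2 (-0.23) were lower and SARS2 (0.996) was higher. The calls of EARS2, TARS2 and NARS2 ended in 3, 12 and 16 of 19 settings, and that of SARS2 in 2 of 18. With library sizes alone in place of TMM scaling the mitochondrial median turned to 0.01 and 0 mitochondrial genes were lower. The sets differ in other ways, VIM among them, and what produced the differences cannot be told apart from the set.

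AARS had the lowest value at -0.74 ± 0.10 (adjusted p = 7.4e-05, edgeR). Its 4 short-title libraries, at 93.6 to 136 CPM, lay below all 6 long-title libraries, at 152 to 226 CPM. NARS, the asparagine enzyme, differed by -0.68 ± 0.12 (adjusted p = 0.000652, edgeR). It stood at 128, 210 and 174 CPM (long) and 90.7 and 109 CPM (short) in wild type, and at 185, 200 and 190 CPM (long) and 136 and 120 CPM (short) in T348I. The short-title libraries were the lower within each genotype, and the sets overlapped only through long-title wild-type library 1. DARS differed by -0.58 ± 0.08 (adjusted p = 0.000155, edgeR), with 157, 194 and 167 CPM (long) and 97.8 and 118 CPM (short) in wild type, and 172, 167 and 171 CPM (long) and 121 and 121 CPM (short) in T348I. The DARS sets did not overlap, and its genotypes did. WARS differed by -0.57 ± 0.09 (adjusted p = 0.000280, edgeR), a size near that of its genotype difference of 0.52. TARS, CARS, YARS, MARS, SARS and KARS were also lower in the short-title libraries, at -0.46, -0.40, -0.35, -0.33, -0.30 and -0.26, and the call of KARS ended in 8 of 19 settings.

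The sets did not overlap in AARS, CARS, DARS and TARS2, each with all short-title libraries below all long-title ones, which 12.7% of all genes tested showed. SARS2, with 0.996 ± 0.30 (adjusted p = 0.0158, edgeR), was counted at 5 to 37 reads per library, or 0.488 to 2.16 CPM, and its ranges overlapped. Besides SARS2, the highest values toward the short-title set were those of WARS2 (0.19), QARS (0.17) and VARS2 (0.08), of which none passed. GARS and VARS, with genotype differences among the highest, had set differences of 0.00 ± 0.08 and 0.06 ± 0.09.

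**Figure D5:**
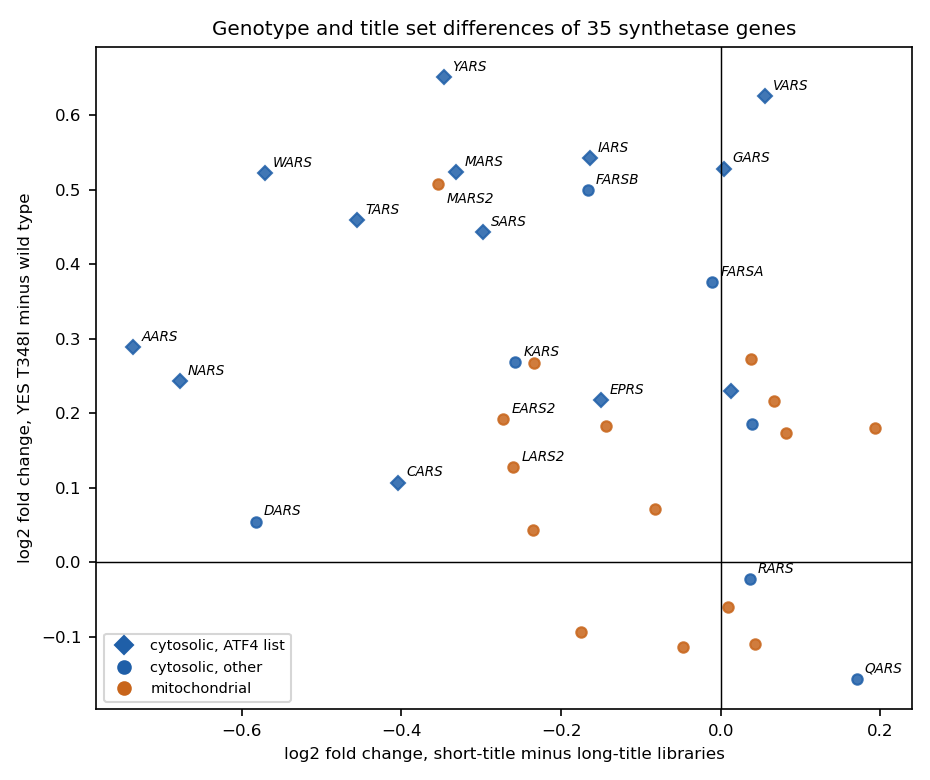
Log2 fold change between title sets (horizontal, short minus long) and between genotypes (vertical, T348I minus wild type) for 35 synthetase genes, from the same fit. SARS2, at 0.996 and -0.09, lies outside the plotted range. Blue diamonds are cytosolic genes on the ATF4 list, blue circles other cytosolic genes and orange circles mitochondrial genes. GARS and VARS lie at about 0 on the horizontal axis, and AARS, NARS and DARS lie farthest left.

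Of the 13 ATF4-responsive cytosolic synthetases 8 were lower in the short-title libraries, with a median of -0.33. Among the other 7 cytosolic genes 2 were (DARS and KARS), with a median of -0.01. For these and the lists below, 22.1% of all genes tested were called lower and 21.0% higher, with a median of -0.01. Among the 7 genes with a TGATGNAA match 5 were lower (median -0.40), and among the 9 with a window and no match 3 were (median -0.15). ATF4 was lower, at -0.73 ± 0.09 (adjusted p = 4.2e-05, edgeR), and 17 of the 21 amino acid response genes tested, ATF4 among them, were lower and 1 was higher. MYC, at 0.09 ± 0.11, did not pass (adjusted p = 0.543, edgeR). Of the 12 mitochondrial translation factor genes 8 were lower, the lowest p-values being those of GFM1, an elongation factor (-0.51 ± 0.09), MTRF1L, a release factor (-0.54 ± 0.11), and TUFM, an elongation factor (-0.30 ± 0.08).

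Whether the genotype difference itself differed between title sets was tested with an interaction term. Of the 36 members 0 were called by edgeR, as were 0% of all 13743 genes. At an unadjusted p under 0.05 the count of members was 1, VARS2 with an interaction of -0.43, with edgeR, DESeq2 and limma-voom alike, and DESeq2 and limma-voom also called 0 after adjustment. The remaining interaction values ran up to 0.35 in YARS and 0.34 in TARS. A miss of the threshold with 2 short-title libraries per genotype does not show that the differences are equal.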

How the data were processed

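Poly(A) RNA was made into stranded libraries, per the labels' protocols. Per the submitters' processing notes, the tools were CASAVA 1.8.2, Trimmomatic 0.35 and STAR 2.5.1b, and the build was GRCh38. The annotation release used for counting is not given in the sources used here. The deposited files hold whole-number read counts per gene, without normalization, made by the authors. Of the 3 count columns, the one for the strand opposite to the read was used, which held 92.2% to 94.5% of stranded counts. Lines that name no gene (20.7% to 30.0% of a library's reads) and 45 identifiers of the pseudoautosomal part of chromosome Y were left out. The remaining 58174 identifiers were matched to GENCODE release 29 for names and exon lengths.

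The model was fitted in R 4.3.3 with edgeR 4.0.16 (filterByExpr with minimum count 10 and minimum total 15, TMM scaling, quasi-likelihood F test of title set and genotype, Benjamini-Hochberg adjustment over 13743 genes, threshold 0.05). A standard error is the size of a log2 fold change divided by the root of F. CPM and RPKM use TMM-scaled library sizes. The fit was also run on simulated counts, drawn independently for each library with the same dispersion in both genotypes. That check does not cover libraries as alike as the long-title T348I ones. The members and gene lists were chosen with earlier results of these data known. Named in full are members called in the genotype test (up to 12 cytosolic and 6 mitochondrial), those with the highest title set differences (up to 4 each way), any called in the interaction, ATF4 and MYC, and up to 3 called genes each way from each other list. QARS, IARS2 and further members are named as extremes. Groups came from the labels. Alternatives were DESeq2 1.42.0, limma-voom (limma 3.58.1), RLE factors, library sizes alone, other filters, other sets of libraries, the replicate block and unstranded counts. Protein identity between partners was not analysed here.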

Additional observations from a re-analysis of the deposited data

Results flagged for a closer look

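Each of the 36 genes was looked at in the 5 libraries of each genotype, 72 groups of values in all, for a single library far from its companions. For 5 independent values drawn alike, chance flags about 1 in 20 such groups, and 5 were found. Each group here mixes 2 title sets and genes of the same library are not independent, so that rate may not apply. In GARS, short-title wild-type library 1 stood at 177.8 CPM, below the 198 to 205 CPM of the other wild-type libraries. In KARS, short-title T348I library 2 stood at 113.83 CPM, below 128 to 134 CPM in its companions. The same library was also the low one in YARS, at 150.8 CPM against 192 to 203 CPM, and in MARS2, at 6.706 CPM against 9.39 to 10.7 CPM. In HARS2, short-title wild-type library 1 was high, at 42.938 CPM against 32.8 to 35.2 CPM. All 5 deviating values came from short-title libraries, and each group holds only 2 of those. Without short-title T348I library 2, the calls of YARS and MARS2 remained and that of KARS ended (adjusted p = 0.0703, edgeR), with its log2 fold change at 0.27 as in all libraries.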

How the results depend on the processing

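In all 23 alternatives of the genotype test the cytosolic and mitochondrial medians stayed above 0 and 0 members were lower. The count of 12 higher cytosolic genes became 7 without a title set term and 7 with long-title libraries alone. It ranged from 8 to 16 when a single library was left out. The number of all genes called higher moved too. It was 1884 of 13743 in the main fit, 818 of 13743 without a title set term and 698 of 13385 with long-title libraries alone. With short-title libraries alone it was 935 of 14531, and with the long-title T348I libraries summed 899 of 14371. On leaving out a library it ran from 1342 of 13952 to 2379 of 14078. The cytosolic median was 0.44 with short-title libraries alone. The count of 2 higher mitochondrial genes was 1 with library sizes alone, 1 with no low-count filter, 1 without both wild-type long-title libraries 1 and 2 (where the median was 0.080), 0 without a title set term, 0 in either title set alone and 0 with the long-title T348I libraries summed. It ranged from 0 to 3 when a library was left out. With the replicate block, 11 cytosolic and 1 mitochondrial genes were higher. Same-numbered libraries deviated with correlations of -0.03, 0.16 and 0.07 (long) and 0.22 (short). Differently numbered ones gave -0.16 to 0.08 (long) and -0.22 (short). The deviations were taken from means of only 2 or 3 libraries, so they cannot decide whether replicate numbers pair the libraries.

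In the title set test the 10 lower cytosolic genes ranged from 9 to 12 over 19 alternatives. With library sizes alone, 1 cytosolic and 2 mitochondrial genes were higher, 0 mitochondrial genes were lower and the mitochondrial median was 0.0076, reversed in sign from -0.06. The 3 lower mitochondrial genes became 1 with no low-count filter, 1 with a filter of 1 CPM in 5 libraries and 0 with the long-title T348I libraries summed, and ranged from 0 to 5 on leaving out a library. Higher cytosolic genes numbered 1 without both wild-type long-title libraries and 0 to 1 on leaving out a library. Higher mitochondrial genes numbered 0 without both, 0 with counts made without regard to strand (where SARS2, the gene called, was not among the genes tested) and 0 to 1 on leaving out a library. The interaction called 0 members in all 17 alternatives. The cause of these shifts was not tested. Genes of few reads, such as SARS2 with 5 to 37, are limited by depth.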
